A study of Mus musculus with 2 samples.

Results

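The angiogenic ligands and endothelial receptors described here are 10 genes chosen by symbol: Vegfa, Pgf, Flt1, Kdr, Nrp1, Angpt2, Tek, Notch4, Dll4 and Cxcr4. All 10 were found among the 55353 gene symbols of the count matrices. The cells came from dorsal skin of C57BL/6 mice at 7 weeks of age and were profiled by single-cell 3′ RNA sequencing. The first library was from imiquimod-treated skin. Imiquimod activates a Toll-like receptor and is widely used to model psoriasis in mice. The second library was from skin that received imiquimod together with Shi-Bi-Man, which the labels do not describe further, and is called the Shi-Bi-Man library. Both groups thus carried imiquimod, and skin without it was not analysed here. Each group held 1 library, and the labels do not say how many mice a library came from. No difference between the treatments therefore has a replicate check, no test was made, and every interval is a 95% interval that covers counting error only.

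Vegfa and Pgf encode secreted growth factors of the VEGF family. VEGF-A signals to endothelium mainly through the receptor encoded by Kdr, while placental growth factor, the product of Pgf, binds the receptor encoded by Flt1, which also acts as a decoy for VEGF-A. Nrp1 encodes a co-receptor shared by VEGF-A and class 3 semaphorins. Angiopoietin-2, from Angpt2, is a context-dependent ligand of the receptor encoded by Tek and destabilises vessels. In a growing sprout the leading tip cell presents the Notch ligand encoded by Dll4 to its neighbours. Notch4 is a Notch receptor of endothelium, and Cxcr4 is the receptor for the chemokine CXCL12 on tip cells and many leukocytes. Keratinocytes are the best known source of VEGF-A in skin, and widened dermal capillaries are a feature of psoriasis.

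The imiquimod library held 28920316 counts in 11316 barcodes and the Shi-Bi-Man library 20837259 counts in 8054 barcodes, of which 11019 and 7863 were kept as cells. Barcodes found in both libraries numbered 49. Clusters were built without the 10 genes and without 67 genes of 6 partner lists, and were named from markers, so class names end in "-like". A level is given as CPM, the count of a gene scaled to the total of all counts in its class, with the imiquimod library first. The blood endothelial-like class held 477 and 246 cells, and its 13 markers summed to 9996 and 9309 CPM against 214 and 179 CPM in all other cells, with none at 0. In the pericyte and smooth muscle-like class 13 markers summed to 26230 and 22890 CPM, and in the macrophage and monocyte-like class 15 markers summed to 29773 and 28867 CPM. A cluster of 792 and 346 cells led by Mmp12, Lyz1, Ear2 and Cd209a was supported by 12 macrophage markers, but its leading genes held more dendritic markers. It stayed unnamed and is called the Mmp12 cluster.

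Blood endothelial-like cells were clustered again. Venular endothelial-like cells, with Selp at 5985 and 6808 CPM, numbered 195 and 164, and arterial endothelial-like cells 50 and 25. Tip-type endothelial-like cells numbered 182 and 52 and were supported by Nid2, Trp53i11, Lama4, Col4a1, Col4a2 and Mcam. The tip marker Esm1 had 24 and 4 counts in this subset and 0 in venular cells of both libraries. The same subset carried the capillary genes Rgcc, at 1780 and 1510 CPM, and Gpihbp1, at 596 and 385 CPM. Sparcl1 and Cd300lg of the same marker list were also higher in it than in venular cells. Cd36 was lower, at 79.9 and 60.8 CPM against 1087 and 1365 CPM in venular cells, and so was Meox2. Car4, Mfsd2a, Timp4, Btnl9 and Aqp7 had few counts or none in either subset. No separate capillary cluster was found at this resolution. At a sub-clustering resolution of 1, tip-type cells numbered 86 and 14 and a capillary endothelial-like cluster 17 and 4, so the bounds of the subset depend on this choice. A remaining subset of 50 and 5 cells was led by the T-cell genes Il17f, Il17a and Trdc and stayed unnamed.

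The genes are all protein-coding, and their positions are given on GRCm38 with the GENCODE vM21 annotation. Vegfa spans 46016993 to 46032369 and Notch4 34564268 to 34588503, both on chromosome 17. Flt1 spans 147561604 to 147726011 and Kdr 75932827 to 75978458, both on chromosome 5. Nrp1, at 128358604 to 128503363, and Angpt2, at 18690263 to 18741562, are on chromosome 8. Pgf lies on chromosome 12 at 85166635 to 85177790 and Tek on chromosome 4 at 94739289 to 94874976. Dll4 lies on chromosome 2 at 119325784 to 119335962 and Cxcr4 on chromosome 1 at 128588199 to 128592293. Angpt2 lies inside Mcph1 on the opposite strand, which had 618 counts against 376 for Angpt2. Whether the counting used strand is not given in the sources used here, and without it the reads of this pair cannot be told apart. The same holds for Dll4, with 284 counts, and the antisense gene Gm14207, with 28.

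The promoters of Pgf, Notch4, Dll4 and Cxcr4 are shown because these genes, with Angpt2, stood highest over venular cells in the tip-type subset of the imiquimod library. Each line gives the 250 bases before the start of a RefSeq transcript (GRCm38.p6), 5′ to 3′ on the strand of the gene. Capitals mark the core letters of the hypoxia response element, ACGTG or GCGTG, on either strand.
Pgf: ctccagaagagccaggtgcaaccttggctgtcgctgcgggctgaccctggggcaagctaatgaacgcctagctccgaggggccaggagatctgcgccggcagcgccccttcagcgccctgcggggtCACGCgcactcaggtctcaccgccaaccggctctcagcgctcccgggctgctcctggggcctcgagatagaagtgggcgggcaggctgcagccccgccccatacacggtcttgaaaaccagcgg
Notch4: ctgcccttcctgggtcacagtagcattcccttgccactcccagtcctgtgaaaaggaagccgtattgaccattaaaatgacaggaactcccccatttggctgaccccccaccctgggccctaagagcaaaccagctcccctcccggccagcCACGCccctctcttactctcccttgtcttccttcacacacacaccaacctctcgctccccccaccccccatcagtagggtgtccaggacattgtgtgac
Dll4: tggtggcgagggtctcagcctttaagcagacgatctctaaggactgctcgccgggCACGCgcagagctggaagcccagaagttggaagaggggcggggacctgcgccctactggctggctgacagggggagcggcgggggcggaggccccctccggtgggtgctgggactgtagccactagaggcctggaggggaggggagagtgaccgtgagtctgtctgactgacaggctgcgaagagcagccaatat
Cxcr4: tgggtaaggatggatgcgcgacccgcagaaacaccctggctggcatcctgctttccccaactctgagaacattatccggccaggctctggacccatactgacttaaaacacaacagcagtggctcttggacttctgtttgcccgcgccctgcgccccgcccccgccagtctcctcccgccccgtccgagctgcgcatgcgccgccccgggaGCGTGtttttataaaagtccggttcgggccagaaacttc

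The lines correspond to chr12:85177314-85177563 on the minus strand, chr17:34564045-34564294 on the plus strand, chr2:119325534-119325783 on the plus strand and chr1:128592300-128592549 on the minus strand. The Pgf entry starts 477 bases from the GENCODE start of the gene. Each of the 4 promoters held 1 match. RefSeq promoters were matched for 9 of the 10 genes, and 7 of the 9 held the core, against 38.6% of 32851 RefSeq promoters of the same length. Kdr held 2 matches, while Vegfa and Tek held 0 in this window. The RBPJ core GTGGGAA, the letters bound by the Notch effector, was found in 1 of 9, that of Kdr, against 5.42% of all promoters. An ETS-type core, AGGAAG, was found in 3 of 9 against 29.5%. A match describes the letters and not a bound site.

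Among the ligands, Vegfa and Pgf were highest in Langerhans-like cells, the antigen-presenting cells of the epidermis, and not in endothelium. Vegfa stood at 325 CPM (interval 300 to 352) in 591 Langerhans-like cells of the imiquimod library and at 691 CPM (559 to 845) in 64 of the Shi-Bi-Man library. In the imiquimod library an unnamed cluster of 138 cells led by Chil3 and Hdc came next, with 293 CPM (210 to 400, overlapping the interval of the Langerhans-like cells), and an unnamed cluster of 58 cells led by Opcml with 285 CPM from 13 counts. Dermal papilla-like cells had 242 and 201 CPM. Fibroblast-like cells had 156 and 138 CPM and basal keratinocyte-like cells 147 and 106 CPM, so these neighbours lay close together. Pgf stood at 688 CPM (651 to 727) and 1222 CPM (1044 to 1421) in Langerhans-like cells. The next classes for Pgf were pericyte and smooth muscle-like cells with 104 and 79.6 CPM and the Mmp12 cluster with 101 and 214 CPM. Langerhans-like cells held 75.0% and 43.9% of all Pgf counts, but only 17.0% and 4.23% of all Vegfa counts.

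**Figure D1:**
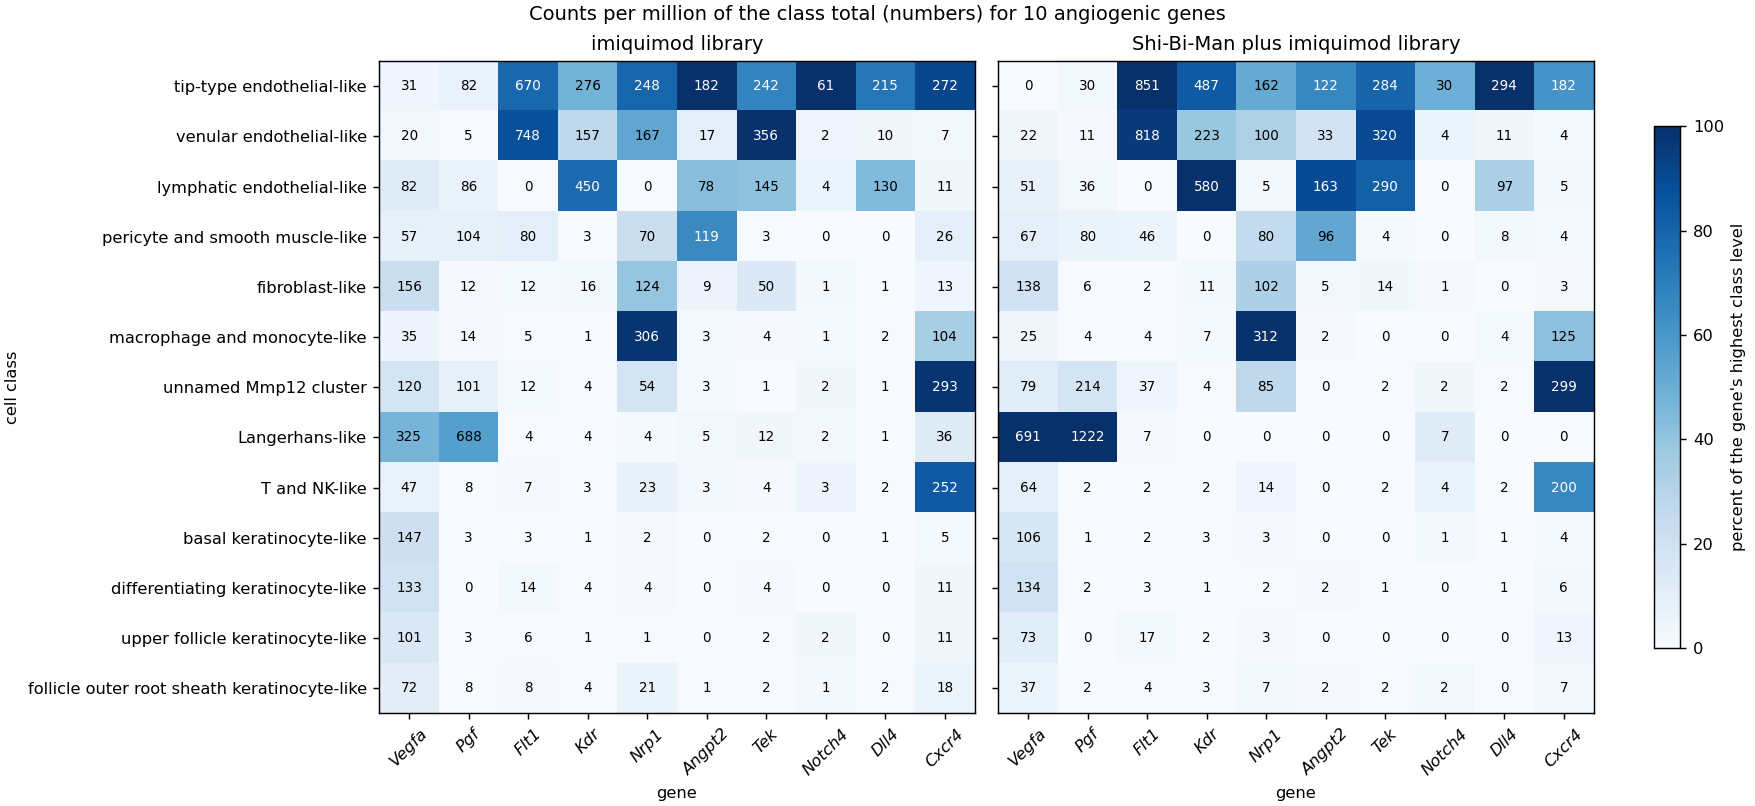
Level of each of the 10 genes (columns, CPM printed in each cell) in 13 cell classes (rows), with the imiquimod library and the Shi-Bi-Man library in separate panels. Colour gives the level as a percentage of the highest of these classes for that gene over both libraries. Flt1, for example, is darkest in venular endothelial-like cells of the imiquimod library, at 748 CPM. In the Shi-Bi-Man library it is darkest in tip-type cells, at 851 CPM.

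Among the receptors, Flt1 was highest in blood endothelial-like cells, at 674 and 813 CPM, and this class held 78.4% and 74.4% of all its counts. Tek stood at 304 and 311 CPM there and made up 52.4% and 47.1% of its counts. Kdr was instead highest in lymphatic endothelial-like cells, at 450 and 580 CPM, against 191 and 284 CPM in blood endothelial-like cells. The tip-type subset of the blood class came nearer, with 277 and 487 CPM from 135 and 48 counts. No ratio of lymphatic to tip-type cells was computed. The log2 ratio of blood over lymphatic was -1.24 (-1.57 to -0.91) in the imiquimod library and -1.03 (-1.42 to -0.65) in the Shi-Bi-Man library. Flt1 had 0 counts in lymphatic endothelial-like cells of both libraries. Against a floor of 3 counts per library and class, it was 60.4-fold and 53.3-fold higher in blood endothelial-like cells. The lower bounds of its counting intervals were 49.0-fold and 43.1-fold. Nrp1 was 18.5-fold higher in the imiquimod library against the same floor, with a lower bound of 14.9-fold. Kdr was thus detected in both kinds of endothelium, and Flt1 in blood endothelium but not in lymphatic endothelium at this depth.

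Nrp1 was spread over several classes. Its highest values came from small groups of cells, such as 19 counts in 58 cells of the cluster led by Opcml (417 CPM) and 15 counts in 25 arterial cells of the Shi-Bi-Man library (408 CPM). Macrophage and monocyte-like cells had 306 and 312 CPM, and blood endothelial-like cells 207 and 155 CPM. Fibroblast-like cells held 30.6% and 50.1% of its counts at 124 and 102 CPM. Cxcr4 was highest in the cluster led by Chil3 and Hdc, with 514 CPM in 138 cells and 1153 CPM, from 23 counts, in 23 cells. It followed with 293 and 299 CPM in the Mmp12 cluster and 252 and 200 CPM in T and NK-like cells. In tip-type cells Cxcr4 stood at 272 and 182 CPM, and its intervals of 228 to 323 and 108 to 288 CPM overlapped those of the T and NK-like cells.

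Within blood endothelium, 5 genes were far higher in tip-type than in venular cells of the imiquimod library. Cxcr4 had 133 counts in tip-type and 3 in venular cells, a log2 ratio of 4.99 (3.63 to 7.51). Dll4 had 105 against 4 counts, a log2 ratio of 4.29 (3.05 to 6.36). Notch4 had 30 against 1 (4.09, lower bound 2.06), Pgf 40 against 2 (3.76, 2.11 to 7.16) and Angpt2 89 against 7 (3.32, 2.31 to 4.76). The clustering did not use these genes. In the Shi-Bi-Man library the log2 ratio was 4.52 (3.03 to 7.08) for Dll4 and 1.84 (0.49 to 3.29) for Angpt2, while the other 3 genes had fewer than 20 counts there over both subsets. Tip-type cells of that library had 18 counts of Cxcr4, 3 of Notch4 and 3 of Pgf, and venular cells 1, 1 and 3.

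Between tip-type and venular cells the VEGF and angiopoietin receptors differed by less than these 5 genes in the imiquimod library. Kdr was higher in tip-type cells, with a log2 ratio over venular cells of 0.81 (0.38 to 1.27) in the imiquimod library and 1.13 (0.55 to 1.70) in the Shi-Bi-Man library. Nrp1 gave 0.57 (0.13 to 1.02) and 0.71 (-0.30 to 1.64). Flt1 was nearly even, at -0.16 (-0.39 to 0.07) in the imiquimod library. Tek was lower in tip-type cells there, at -0.56 (-0.92 to -0.20), and its highest level was in arterial cells, at 476 and 354 CPM. Against arterial cells the order was another. Kdr had 135 counts in tip-type and 3 in arterial cells of the imiquimod library, a log2 ratio of 3.22 (1.86 to 5.73), and 1.27 (0.20 to 2.74) in the Shi-Bi-Man library. Cxcr4 gave 3.20 (1.84 to 5.71) in the imiquimod library, Angpt2 0.91 (0.05 to 2.02) and Notch4 -0.03 (-1.17 to 1.48). Nrp1 was lower in tip-type than in arterial cells of the Shi-Bi-Man library, at -1.33 (-2.44 to -0.21). Arterial cells also held Dll4, at 255 and 245 CPM, next to 215 and 294 CPM in tip-type cells, and these neighbours had overlapping intervals in both libraries. Arterial cells of the Shi-Bi-Man library numbered 25, and their Dll4 level rested on 9 counts.

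**Figure D2:**
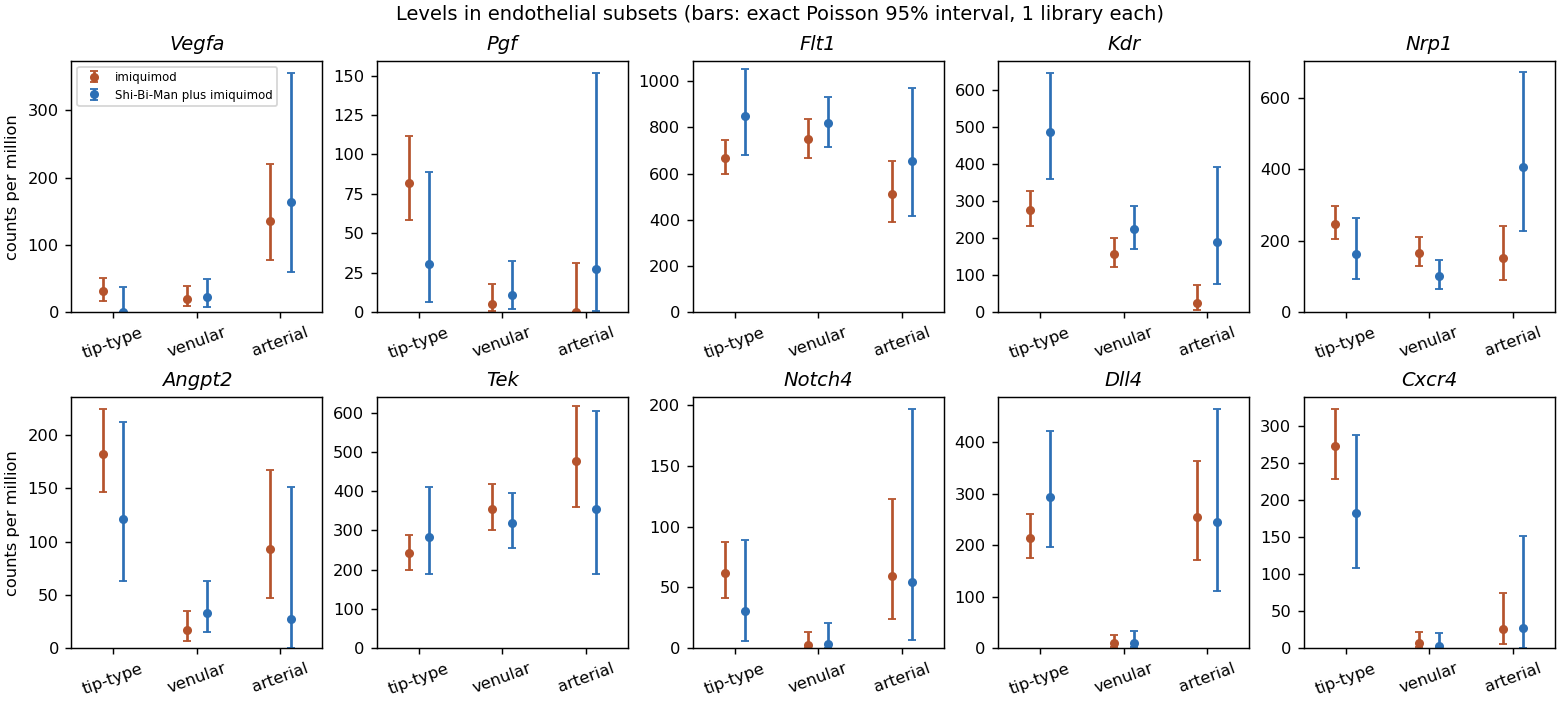
Level of each gene (vertical axis, CPM) in tip-type, venular and arterial endothelial-like cells of both libraries, with bars for exact Poisson 95% intervals. Dll4 stands at 215 and 294 CPM in tip-type and at 255 and 245 CPM in arterial cells, against 9.81 and 11.2 CPM in venular cells.

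The tip-type signal came from a minority of cells. In the imiquimod library 47 of 182 tip-type cells had a Cxcr4 count, and 46.8% of these had Dll4 as well, against 27.4% of the others. Cells with Cxcr4 were also deeper, with a median of 2773 counts against 1907. Pgf was found in 15 cells, of which 11 also had Angpt2, and their median depth was 5672 counts against 1998. The part of depth in these overlaps was not tested. A single cell held 19 of the 89 Angpt2 counts and a single cell 18 of the 133 Cxcr4 counts. The intervals take counts as independent and so are too narrow where few cells hold many of them.

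Between the treatments, 3 of the 10 genes were lower in blood endothelial-like cells of the Shi-Bi-Man library and 0 were higher. A gene is counted where it had at least 20 counts over both libraries, lay past 1.5-fold and had an interval that excluded 0. Of all genes with that many counts in the class, 14.5% met the rule in either direction. Cxcr4 had 152 and 20 counts, or 135 and 48.5 CPM, a log2 ratio of Shi-Bi-Man over imiquimod of -1.45 (-2.23 to -0.80). Angpt2 had 109 and 23 counts, or 97.1 and 55.8 CPM, a log2 ratio of -0.77 (-1.52 to -0.14). Notch4 had 40 and 6 counts, or 35.6 and 14.6 CPM, a log2 ratio of -1.19 (-2.82 to -0.04). With TMM or DESeq2 factors Notch4 was no longer counted, which left 2 genes lower, and 1, Kdr, was higher, and as a mean over cells Angpt2 lay at -0.11. The median over the 10 genes was -0.40, against -0.03 over all genes.

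All 3 were among the 5 genes higher in tip-type than in venular cells, Notch4 being as high in arterial cells, and the make-up of the class differed between libraries. Tip-type cells made up 38.2% (33.8 to 42.7) of blood endothelial-like cells in the imiquimod library and 21.1% (16.2 to 26.8) in the Shi-Bi-Man library. Venular cells made up 40.9% (36.4 to 45.4) and 66.7% (60.4 to 72.5). Tip-type cells were also deeper in the imiquimod library, with a median of 2117 counts against 1420. The subset led by T-cell genes made up 10.5% and 2.03%, and T and NK markers summed to 420 and 53.4 CPM in the class. The part of these differences in the class values was not tested.

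Within tip-type cells 1 of 9 measured genes was counted as higher and 0 as lower, against 11.1% of all genes. At a sub-clustering resolution of 1 these ratios could not be computed, since the tip-type cluster held 86 and 14 cells. An unnamed cluster there that shared the leading genes Srarp and Lrat with the tip-type subset held 92 and 37, so the mix within the subset may differ between libraries. Kdr, the main signalling receptor for VEGF-A, had 135 and 48 counts, or 277 and 487 CPM, a log2 ratio of 0.82 (0.31 to 1.30). Cxcr4, at 272 and 182 CPM, had a log2 ratio of -0.54 (-1.38 to 0.14), an interval that included 0. Angpt2 gave -0.53 (-1.59 to 0.29), Notch4 -0.82 (-3.37 to 0.67) and Dll4 0.47 (-0.20 to 1.06). After each tip-type cell was thinned to 500 counts, Cxcr4 was found in 11.0% (6.84 to 16.5) and 7.69% (2.14 to 18.5) of cells, while 47 of 182 and 7 of 52 cells had a count before thinning. Dll4 was found in 9.34% (5.54 to 14.5) and 21.2% (11.1 to 34.7) of thinned cells, and unthinned in 32.4% and 36.5%. In T and NK-like cells, which should lack Dll4 and had median depths of 1007 and 781 counts, the thinned share was 0.118% and 0%.

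In venular cells 1 of 4 measured genes was counted, against 11.3% of all genes. Nrp1 had 68 and 27 counts, or 167 and 100 CPM, a log2 ratio of -0.72 (-1.43 to -0.07). As a mean over cells it lay at -0.47, and with the 10 genes and their partners among the variable genes at -0.58, both short of 1.5-fold. Kdr lay in the same direction as in tip-type cells, at 157 and 223 CPM, but its interval of -0.03 to 1.04 included 0. Flt1, at 748 and 818 CPM, and Tek, at 356 and 320 CPM, had intervals that included 0 as well.

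**Figure D3:**
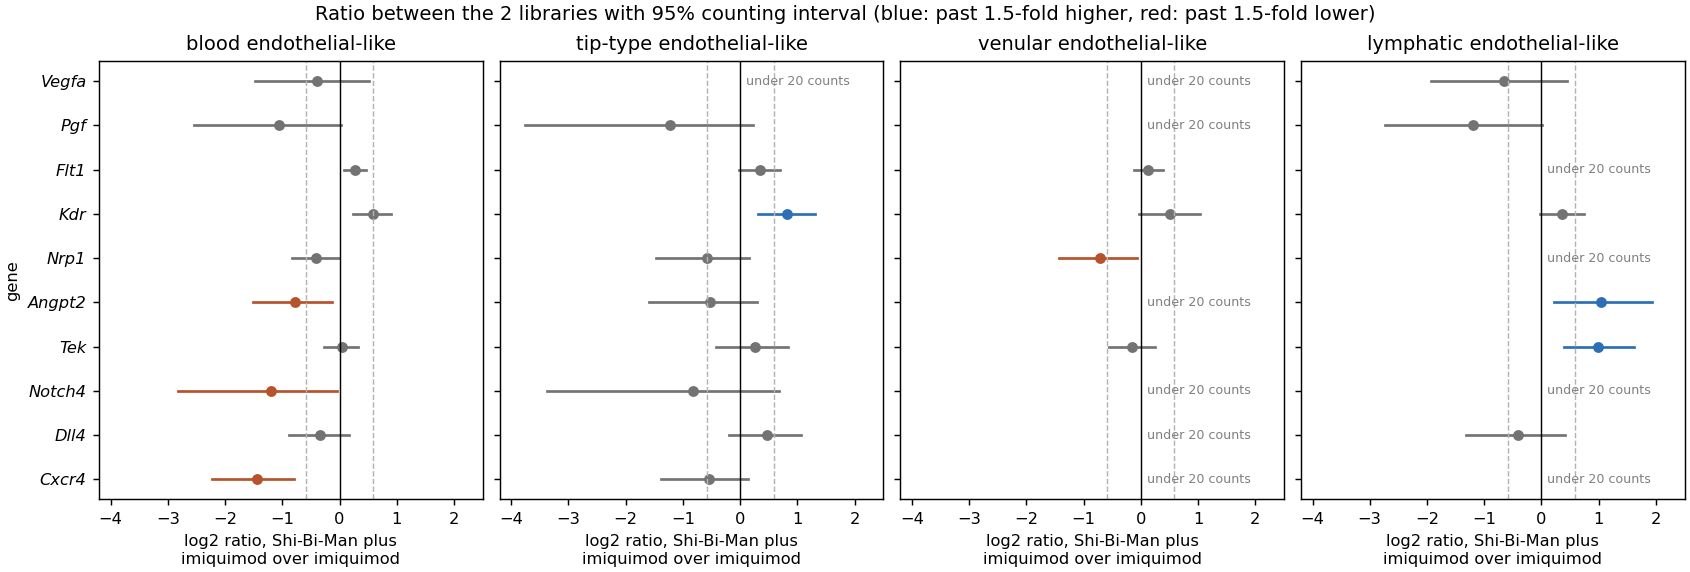
Log2 ratio of the Shi-Bi-Man library over the imiquimod library for each gene with at least 20 counts in blood, tip-type, venular and lymphatic endothelial-like cells, with 95% counting intervals and dashed lines at 1.5-fold. Blue marks genes counted as higher and red as lower, and Cxcr4 lies at -1.45 in all blood endothelial-like cells and at -0.54 in tip-type cells.

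Lymphatic endothelial-like cells, 144 and 153 in number, showed a different pair. Angpt2 had 21 and 32 counts, or 78.2 and 163 CPM, a log2 ratio of 1.05 (0.22 to 1.93). Its receptor Tek had 39 and 57 counts, or 145 and 290 CPM, a log2 ratio of 0.99 (0.39 to 1.62). These 2 of 6 measured genes were higher and 0 were lower, where 12.3% of all genes in the class were counted. A single cell held 12 of the 57 Tek counts in the Shi-Bi-Man library, and cells with Tek made up 22.9% and 20.3% of the class. Kdr, at 450 and 580 CPM, gave 0.36 (-0.02 to 0.75). Flt4, the VEGF-C receptor of lymphatic vessels and a member of the partner lists, was higher too, with 383 and 707 CPM (log2 ratio 0.88).

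Pericyte and smooth muscle-like cells, the mural cells of vessels, numbered 219 and 187. They held Angpt2, at 119 and 96.3 CPM, and Pgf, at 104 and 79.6 CPM. In the imiquimod library Angpt2 was 39.4-fold and Pgf 13.3-fold higher than in T and NK-like cells. Kdr had 1 and 0 counts and Tek 1 and 1, so mural cells held the angiopoietin ligand with almost no transcript of its receptor. None of 5 measured genes was counted between the treatments, against 12.3% of all genes. Angpt2 gave a log2 ratio of -0.29 (-1.10 to 0.44) and Pgf -0.36 (-1.25 to 0.44). Flt1 had 31 and 11 counts, of which a single cell held 10, and blood endothelial markers summed to 262 and 373 CPM in the class.

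Macrophage and monocyte-like cells numbered 682 and 394. Nrp1, which marks some tissue macrophages as well as endothelium, had 336 and 175 counts, or 306 and 312 CPM, a log2 ratio of 0.03 (-0.24 to 0.30). After thinning, 12.6% (10.2 to 15.3) and 14.0% (10.7 to 17.8) of cells had an Nrp1 count, and unthinned 33.4% and 31.7%. For Cxcr4 the levels were 104 and 125 CPM and the ratio 0.27 (-0.18 to 0.71). None of 3 measured genes was counted, against 11.3% of all genes.

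In the Mmp12 cluster 4 of 5 measured genes were counted, against 17.5% of all genes. Pgf had 147 and 109 counts, or 101 and 214 CPM, a log2 ratio of 1.09 (0.72 to 1.45). Its receptor Flt1 was low, at 12.4 and 37.4 CPM, with a log2 ratio of 1.59 (0.59 to 2.61). Nrp1 gave 0.65 (0.07 to 1.19), while Vegfa, with 175 and 40 counts, was lower at -0.60 (-1.14 to -0.11). Over the alternatives Pgf ranged from 0.46 to 1.14, Nrp1 from 0.51 to 0.70 and Vegfa from -0.68 to -0.54. Each of these thus fell short of 1.5-fold under at least 1 alternative. Cxcr4 was even, at 0.03. Nrp1 was 5.62-fold and 3.66-fold higher in macrophage and monocyte-like cells than in this cluster. Pgf, by contrast, was 7.17-fold lower there in the imiquimod library.

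Langerhans-like cells numbered 591 and 64, and both ligands made up a larger share of their counts in the Shi-Bi-Man library. Pgf had 1284 and 168 counts, a log2 ratio of 0.83 (0.59 to 1.06), and Vegfa 606 and 95 counts, a log2 ratio of 1.09 (0.76 to 1.40). In 500-count thinned cells, Pgf was found in 24.9% (21.4 to 28.6) and 37.5% (25.7 to 50.5), and unthinned in 58.9% and 65.6%. In T and NK-like cells the thinned share of Pgf was 0.395% and 0%. Median depth was 2908 and 2120 counts. Cxcr4 had 68 and 0 counts, and the upper bound of its log2 ratio was -0.40. Against the floor of 3 counts, or 21.8 CPM, it was 1.67-fold lower in the Shi-Bi-Man library. Pgf, Vegfa and Cxcr4 are 3 of 4 measured genes, where 10.2% of all genes in the class were counted.

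**Figure D4:**
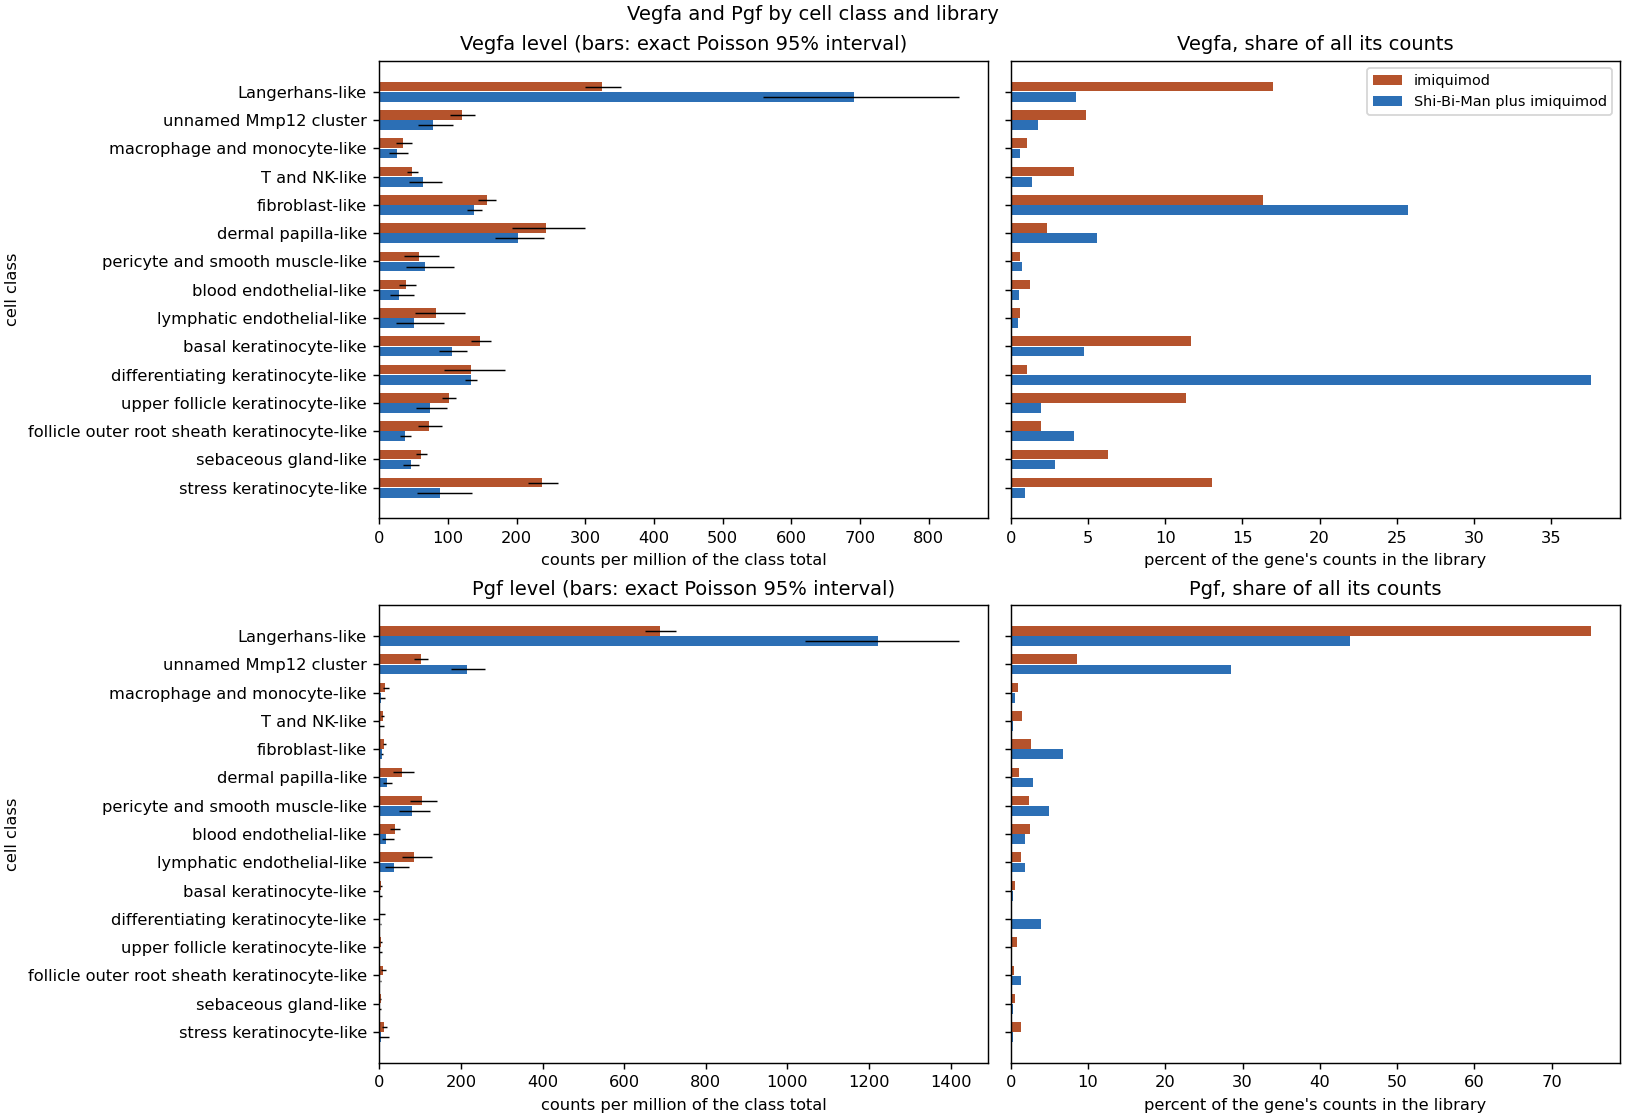
Level of Vegfa and Pgf (CPM) and the percentage of all counts of each gene held by each cell class in both libraries. Pgf is concentrated in Langerhans-like cells, with 75.0% and 43.9% of its counts, and Vegfa is spread over many classes.

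Keratinocytes held much of the Vegfa, and its ratio between treatments did not pass 1.5-fold in 3 of the 4 keratinocyte classes compared. Each of the 3 passed it under at least 1 alternative, with lowest values of -0.73 in the basal, -0.67 in the differentiating and -0.79 in the upper follicle class. Basal keratinocyte-like cells had 417 and 107 counts, or 147 and 106 CPM, a log2 ratio of -0.47 (-0.79 to -0.16) that did not pass 1.5-fold. Differentiating keratinocyte-like cells had 133 and 134 CPM, a log2 ratio of -0.01 (-0.47 to 0.52). Because this class numbered 65 and 1392 cells, it held 37.6% of all Vegfa counts in the Shi-Bi-Man library. Upper follicle keratinocyte-like cells had 101 and 73.0 CPM, a log2 ratio of -0.45 (-0.95 to -0.02). In follicle outer root sheath keratinocyte-like cells, whose leading genes included Dct and Krt28, Vegfa was lower, at 71.8 and 37.3 CPM, with a log2 ratio of -0.95 (-1.41 to -0.47). A stress keratinocyte-like cluster of 305 cells in the imiquimod library had 239 CPM (218 to 262) and held 12.9% of its Vegfa counts, but had 5 cells in the other library and was not compared.

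Few other members reached 20 counts in keratinocytes. In the basal class Vegfa alone was measured, and it was not counted, where 12.1% of all genes were. In the upper follicle class 1 of 3 genes was counted, against 17% of all genes, and this was Flt1, at 6.48 and 16.6 CPM. In the differentiating class 1 of 3 was counted, against 15%. This was again Flt1, in the opposite direction, at 14.4 and 3.48 CPM from 4 and 22 counts. Its interval was -3.60 to -0.05. With TMM or DESeq2 factors, which moved all ratios of the class by 0.19 and 0.17, that interval included 0. In the outer root sheath class all 3 measured genes, Vegfa, Nrp1 and Cxcr4, were lower, where 29.3% of all genes were counted. The direction of Nrp1 there turned with at most 10% mitochondrial counts (0.83) and with doublets kept (0.57). Its level of 20.5 CPM in the imiquimod library was below the 22.9 CPM of T and NK-like cells. It was above the 2.47 CPM of basal keratinocyte-like cells there. Flt1 in the upper follicle class was near the 6.77 CPM of T and NK-like cells in the imiquimod library. In the Shi-Bi-Man library it was above their 2.06 CPM, which came from 1 count.

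Fibroblast-like cells had 5 of 8 measured genes lower and 0 higher, against 15.4% of all genes, but fewer were counted within the clusters that make up the class. Tek, the angiopoietin receptor, had 186 and 58 counts, or 49.8 and 13.9 CPM, a log2 ratio of -1.83 (-2.29 to -1.41). The class joins a pair of clusters whose sizes differed, with 879 and 458 cells in the one and 606 and 1365 in the other. In the first Tek stood at 82.5 and 48.1 CPM and in the second at 6.82 and 3.73 CPM. The ratio within the first was -0.77 (-1.28 to -0.30), less than the ratio of the joined class. Vegfa gave -0.18 in the joined class, but 0.62 (0.37 to 0.85) in the first cluster and -0.47 (-0.71 to -0.22) in the second. In the first cluster 3 of 8 measured genes were lower and 1 higher, against 11.9% of all genes. In the second 2 of 7 were lower, against 14.1%. Pgf, counted as lower in the joined class, gave -0.36 (-1.48 to 0.58) and -0.39 (-1.67 to 1.03) within them. Angpt2 gave 0.11 (-1.36 to 1.35) in the first and -1.37 (-2.55 to -0.26) in the second. Flt1, Pgf, Angpt2 and Cxcr4 were at or below 12.6 CPM in the joined class.

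Over all retained cells 7 of the 10 genes were lower in the Shi-Bi-Man library and 0 higher, where 23.9% of all genes were counted. Pgf had 1711 and 383 counts, or 60.2 and 18.7 CPM, a log2 ratio of -1.68 (-1.85 to -1.52), although it was higher within Langerhans-like cells and the Mmp12 cluster. Cxcr4 gave -1.24 (-1.38 to -1.10), and T and NK-like cells, which held 42.2% of its counts in the imiquimod library, numbered 2534 and 514. Within those cells its ratio was -0.33 (-0.65 to -0.03). It was 0.06 (-0.38 to 0.44) and 0.04 (-0.51 to 0.54) within the clusters of 1747 and 176 cells and of 678 and 217 cells, which held most of its counts in the class. Fewer cells of a class and less RNA per cell cannot be told apart in such totals.

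The partner lists described the pathways around these genes in blood endothelial-like cells, where 14.5% of all genes were counted in either direction. The 2 of 16 counted in the VEGF response list is near that share. The VEGF family, Notch and hypoxia lists lay above it and the angiopoietin and CXCL12 lists below it. Each list holds few genes, and no list was tested against that share. Of 6 measured VEGF family partners, 1 was higher and 1 lower: Nrp2, a co-receptor for VEGF-C and semaphorins, at 180 and 289 CPM (log2 ratio 0.68), and Plxnd1, a semaphorin receptor, at 184 and 107 CPM (-0.78). Of 12 Notch partners, 1 was higher, the ligand gene Dll1 (1.18), and 3 were lower, among them the Notch target genes Hey1 (-1.28) and Nrarp (-1.01). None of 3 angiopoietin partners and neither of the CXCL12 partners was counted. Of 16 VEGF response genes, Rcan1, an inhibitor of calcineurin, was higher at 279 and 701 CPM (1.33), and Aplnr, the apelin receptor, lower at 68.6 and 29.1 CPM (-1.19). Of 14 hypoxia response genes 3 were higher, led by Pfkfb3 (1.41) and Ndrg1 (1.12), and 2 lower, Ankrd37 (-1.40) and Adm (-0.99). The median log2 ratio of the hypoxia list was 0.28 and that of the Notch list -0.31, beside -0.03 for all genes. Within the subsets the hypoxia median was -0.06 in tip-type and 0.43 in venular cells. The Notch median was -0.45 in tip-type and 0.22 in venular cells, beside -0.015 and -0.0003 for all genes. In tip-type cells 0 of 10 Notch partners were lower and 1 higher, against 11.1% of all genes. In venular cells 1 of 7 was lower and 0 were higher, against 11.3%.

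Within tip-type cells Cxcl12, the ligand of Cxcr4, had 170 and 76 counts, or 348 and 770 CPM, a log2 ratio of 1.15 (0.74 to 1.54). At a sub-clustering resolution of 1, Cxcl12 was among the leading genes of the unnamed cluster of 92 and 37 cells. Tip-type cells numbered 86 and 14 there, and the part of this mix in the Cxcl12 ratio was not tested. Rcan1 was higher in tip-type (1.35) and venular cells (0.95), and Ndrg1 likewise (1.36 and 0.74), both chosen after their values were seen. In tip-type cells 1 of 16 VEGF response genes and 2 of 13 hypoxia genes were higher, and 0 were lower. In venular cells 1 of 13 VEGF response genes was higher and 2 were lower, while 2 of 10 hypoxia genes were higher and 0 lower. Of all genes, 11.1% in tip-type and 11.3% in venular cells were counted in either direction. In pericyte and smooth muscle-like cells 2 of 8 Notch partners were lower, where 12.3% of all genes were counted, Heyl at 70.0 and 16.8 CPM (-1.92) and Nrarp (-0.68), and Adm was the highest of the hypoxia genes (2.20). In macrophage and monocyte-like cells 0 of 13 hypoxia genes and 0 of 8 Notch partners were counted, against 11.3% of all genes. In basal keratinocyte-like cells 3 of 6 VEGF family partners were higher, led by Sema3f (1.34) and Sema3c (0.95), against 12.1% of all genes counted in either direction. In the upper follicle class 6 of 11 VEGF response genes were higher, led by Pdgfb (2.60) and Spry2 (1.15), and 0 lower, against 17% of all genes counted in either direction.

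The genes whose profiles were most alike were named by Pearson's r over 32 profiles, from 16 classes in both libraries. These profiles share libraries, and r is a description. Dll4 was most like Emcn, Podxl and Tie1, each at 0.97. Kdr was most like Shank3 (0.95), Lrg1 (0.91) and She (0.89), and Tek like Shank3 (0.92), Slc43a3 (0.89) and Kdr itself (0.88). Angpt2 was most like Pcp4l1 (0.96), Synm (0.95) and Pgm5 (0.94). Flt1 was nearest to Sox17 (0.83), Gkn3 (0.82) and Tmem252 (0.82), and Notch4 to Vwf (0.86), Sox17 (0.85) and Tmem252 (0.83). Nrp1 was nearest to Ifi204 (0.89), Tlr4 (0.87) and Ifi203 (0.84), and Cxcr4 to Klhl6 (0.83), Batf3 (0.81) and Srgn (0.80). Pgf was nearest to Rogdi (0.85), H2-DMb2 (0.82) and Pvr (0.79), and Vegfa to Rnf24 (0.84), Il1rap (0.78) and Bend6 (0.66).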

How the data were processed

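Dorsal skin cells of 2 libraries were measured by 3′ single-cell RNA sequencing. The authors deposited counts per gene and barcode for each library, and the submitters' processing notes name mm10 and GRCm38. The aligner, the collapsing of molecules and the use of strand are not given in the sources used here. Cells with at least 200 genes and at most 20% mitochondrial counts were kept. Scrublet marked 0 barcodes in the imiquimod library, where it did not work, and 83 in the other, which were removed. Cells were clustered together with scanpy 1.11.5 and leidenalg 0.10.2 (2000 variable genes, 30 components, 15 neighbours, resolution 1; endothelium again with 20 components and resolution 0.6). Raw counts were summed per class and library. CPM carry exact Poisson intervals, log2 ratios (0.5 added to each count) exact conditional binomial intervals and shares Clopper-Pearson intervals, all at 95%. Ratios between libraries were computed for classes with at least 50 cells in each. All 10 genes were named, with up to 2 genes per partner list and direction and the 3 most alike genes (log2 of CPM plus 5; at least 200 counts). A few genes outside this rule (Flt4, and list genes of the endothelial subsets) were chosen after their values were seen. The genes and lists were chosen with earlier results of these data known. Alternatives covered cell filters, resolution, variable genes, scaling by edgeR 4.0.16 and DESeq2 1.42.0 factors, free RNA and count minimums. The ratio and its interval were tested on simulated class sums with independent counts. Counts gathered in few cells and variation between libraries were not simulated.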

Additional observations from a re-analysis of the deposited data

Results flagged for a closer look

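Several of the 10 genes lay past 1.5-fold in opposite directions in different classes or clusters, and no difference between them was tested. The values are log2 ratios of Shi-Bi-Man over imiquimod with at least 50 counts. Vegfa gave 1.09 in Langerhans-like cells and 0.62 in the fibroblast-like cluster of 879 and 458 cells. It gave -0.6 in the Mmp12 cluster, which fell short of 1.5-fold under at least 1 alternative. In outer root sheath keratinocyte-like cells it gave -0.95, and in the T and NK-like cluster of 678 and 217 cells -0.85. Pgf gave 0.83 in Langerhans-like cells and 1.09 in the Mmp12 cluster, but -0.91 in fibroblast-like cells, where neither cluster on its own was counted (-0.36 and -0.39). Nrp1 gave 0.65 in the Mmp12 cluster and -0.72 in venular endothelial-like cells, both short of 1.5-fold under at least 1 alternative. It gave -1.54 in an unnamed cluster of 531 and 415 cells led by Coch and Lrrc15. Angpt2 gave 1.05 in lymphatic endothelial-like cells and -0.77 in blood endothelial-like cells. In fibroblast-like cells it gave -0.84, but 0.11 in the cluster of 879 and 458 cells and -0.42 as a mean over cells. Tek gave 0.99 in lymphatic endothelial-like cells, -1.83 in fibroblast-like cells and -0.77 in the fibroblast-like cluster of 879 and 458 cells. Cxcr4 gave 0.92 (0.13 to 1.86) in dermal papilla-like cells (16 and 56 counts), -1.45 in blood endothelial-like cells and -1.98 in fibroblast-like cells. TMM and DESeq2 factors each moved all ratios of the dermal papilla-like class by -0.28, and with them that interval included 0. The -3.34 of Cxcr4 in Langerhans-like cells rests on 0 counts in the Shi-Bi-Man library and depends on the 0.5 added to each count.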

How the results depend on the processing

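No paired analysis was possible because each group holds 1 library. In blood endothelial-like cells, 1 gene in place of 0 was higher with TMM factors, with DESeq2 size factors and with at least 500 genes per cell, and this was Kdr, at 0.64, 0.63 and 0.63. As a mean over cells, 1 gene in place of 3 was lower there, and Angpt2 lay at -0.11; the cause was not tested. Without the unnamed endothelial subset, an alternative chosen after seeing the data, 4 were lower. Over all alternatives Cxcr4 ranged from -1.61 to -1.33 in this class, Notch4 from -1.58 to -0.94 and Kdr from 0.52 to 0.64. In tip-type cells Kdr ranged from 0.68 to 0.88 and Cxcr4 from -1.19 to -0.49. At the lower sub-clustering resolution of 0.3 tip-type cells numbered 193 and 53. At the higher one they numbered 86 and 14, below the 50 cells needed in each library, so no ratio was computed there. In Langerhans-like cells Pgf ranged from 0.68 to 0.98 and Vegfa from 0.83 to 1.24. In the Mmp12 cluster Pgf ranged from 0.46 to 1.14, Nrp1 from 0.51 to 0.70 and Vegfa from -0.68 to -0.54. In lymphatic cells Angpt2 ranged from 0.99 to 1.08 and Tek from 0.67 to 1.05. Nrp1 in outer root sheath keratinocyte-like cells, lower in the report, was higher with at most 10% mitochondrial counts (0.83) and with doublets kept (0.57). Of the log2 ratios recomputed, 776 kept within their interval, 14 moved beyond it and 2 reversed. Of the shares of cells, 55 moved and 9 did not, as the shares depend on the number of counts kept per cell. TMM and DESeq2 factors moved all ratios by 0.13 and 0.15 in Langerhans-like, 0.19 and 0.17 in differentiating, and -0.22 and -0.23 in outer root sheath cells. The largest shift was in dermal papilla-like cells, at -0.28 with either. Depth limits Notch4, with 100 counts in all, and every value in the 52 tip-type cells of the Shi-Bi-Man library.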

Other observations

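Outside the rule for named genes, Cxcl12 in fibroblast-like cells was chosen after its values were seen. It had 5534 and 1868 counts, or 1482 and 447 CPM, a log2 ratio of -1.73 (-1.80 to -1.65), but the class joins a pair of clusters of unequal size. In the cluster of 606 and 1365 cells both CXCL12 partners, Cxcl12 and its scavenging receptor Ackr3, were lower (median -1.79). In the cluster of 879 and 458 cells neither was counted (median -0.06). Ackr3 was also lower in lymphatic (-0.86) and venular endothelial-like cells (-1.04).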
